A study of Homo sapiens with 36 samples.

Results

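A set of 9 genes that glioma studies use as markers of the mesenchymal state were followed in human cells exposed to a plant extract or to a kinase inhibitor. They are vimentin (VIM), CD44, tenascin C (TNC), fibronectin (FN1), SPARC, AXL, THY1, caveolin 1 (CAV1) and galectin 1 (LGALS1). The 9 genes were taken by their symbols, and each matched 1 row of a table of 60675 genes. The cells were SW1783, derived from an astrocytoma, and HT29, from a colorectal adenocarcinoma. Each line gave 18 libraries in 6 groups of 3 replicates after 24 h of exposure. In batch A, vehicle was set against 10 µM wortmannin, which blocks the lipid kinase PI3K and served as positive control. In batch B, a vehicle group stood beside 3 groups given ACD, an extract made with hot water from the monkshood *Aconitum carmichaeli* Debeaux, at 20 µg/mL (low), 100 µg/mL (medium) or 500 µg/mL (high). The labels give the vehicle as 0.1% DMSO. The methods describe a vehicle of phosphate-buffered saline with a higher share of DMSO. The extract, in the same solvent, was diluted into the medium of the wells, and a vehicle diluted alike would come to the labels' value. The lines were grown in different media, SW1783 without added CO2 and HT29 with it, so line and medium cannot be told apart. Replicates were not said to come from separate cultures, so p-values measure the spread between these libraries, which may be technical.

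The mesenchymal state is one of the expression states described in glioblastoma and in lower-grade astrocytic tumours. Cells in this state express genes of connective tissue, such as those for the extracellular matrix and its receptors, beside or in place of neural and glial genes, and the state has been linked to inflammation, invasion and resistance to therapy. Transcription factors of the STAT, C/EBP, AP-1 and ZEB families are known regulators of it. Colorectal epithelial cells such as HT29 carry little of this programme, except CD44, which epithelial cells use as well.

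The SW1783 libraries held 18863852 to 26436841 counts each, and the HT29 libraries 15941250 to 33866636. Of the 11 astrocyte genes listed, GFAP, AQP4, SOX2, S100B, ALDH1L1 and FABP7 were at or near 0 in SW1783, with no library above 0.261 CPM (counts over the library total, times 1000000), and SLC1A2 reached at most 0.757 CPM. SLC1A3, the glutamate transporter of astrocytes, had a median of 32.1 CPM in SW1783 (5.58 to 50.1) and no count in 17 of the 18 HT29 libraries, and GJA1 had medians of 241 and 0.133 CPM. SOX9 and GLUL were measured in both lines, with medians of 69.2 and 66.2 CPM in SW1783 and 140 and 170 CPM in HT29. The connective tissue gene COL1A1 had a median of 2997 CPM in SW1783 and 1.25 CPM in HT29, and the epithelial gene EPCAM 0.0386 and 534 CPM. Mitochondrial ribosomal RNA took 0.913% to 0.96% of the counts in the batch B vehicle of SW1783, 3.01% to 3.33% at the low dose, 7.67% to 8.05% at the medium dose and 5.76% to 6.06% at the high dose. In HT29 it took 1.14% to 1.22% in that vehicle, 0.982% to 1.14%, 1.96% to 2.18% and 11.3% to 12.5% at the 3 doses, and its part in the differences between lines was not tested. With wortmannin the share was 1% to 1.03% (SW1783) or 1.3% to 1.4% (HT29). The chi-square of the counts of a pair of vehicle libraries, per degree of freedom, was 1.53 to 1.64 (SW1783) or 1.46 to 1.54 (HT29) where batches A and B shared a replicate number and 2.04 to 3.12 or 3.78 to 17.7 where the numbers differed, so the batches were not treated as independent repeats of the vehicle. Within its group the high-dose replicate 2 of HT29 stood apart, at 70.8 and 71.5 from the others, which were at 10.1 from each other. The HT29 vehicle replicate 1 stood apart less far, at 14.8 and 17 from the others in batch A and at 15.1 and 17.3 in batch B. Those others were at 3.78 and 4.04 from each other. No pair within an SW1783 group exceeded 3.77.

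In SW1783 given vehicle the markers were abundant, and in HT29 only CD44 was. Per kilobase of the canonical transcript, the order in the batch B vehicle of SW1783 was VIM, LGALS1, FN1, SPARC, CD44, CAV1, AXL, TNC and THY1. VIM, an intermediate filament protein of connective tissue and glial cells, stood at 2027 ± 90.3 CPM per kilobase (SD, n = 3). That was rank 15 among 19586 protein-coding genes. LGALS1, a small secreted lectin that binds galactose-bearing sugars, followed at 1663 ± 97.2. FN1, the fibrillar glycoprotein that integrins bind, and SPARC, a collagen-binding matrix protein, stood at 645 ± 3.22 and 633 ± 17.0 and were the only neighbours in the order whose libraries overlapped. CD44, the receptor for the matrix sugar hyaluronan, was at 517 ± 5.82, and CAV1, the scaffold of the membrane pits called caveolae, at 332 ± 6.64. AXL, a receptor tyrosine kinase of the TAM family, was at 137 ± 1.45, the matrix glycoprotein TNC at 109 ± 0.368, and THY1, a lipid-anchored surface glycoprotein, at 93.2 ± 1.60, which was rank 672. The 9 genes together took 1.85% of the counts of SW1783 vehicle libraries and 0.0538% of those of HT29.

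All 9 markers were higher in SW1783 than in HT29 in the vehicle of batch B by the Wald test of DESeq2, where 50.2% of all tested genes passed the same threshold in either direction. That threshold, used for every call below, was an adjusted p-value under 0.05 with a change of more than 1.5-fold, which is a log2 fold change beyond 0.585. CD44 differed least, at 2810 ± 31.6 CPM in SW1783 and 522 ± 31.7 in HT29, which is 5.39-fold. CAV1 was 88.2-fold higher at 816 ± 16.3 against 9.25 ± 0.297 CPM, LGALS1 340-fold, AXL 364-fold, TNC 943-fold and FN1 3276-fold. SPARC had no count in any of the 18 HT29 libraries and was at least 52527-fold higher in SW1783, taking a floor of 3 counts over the vehicle group. VIM had at most 4 counts in an HT29 library and none in 6 of the 18, and THY1 had none in 14 of the 18. The lowest SW1783 library stood above the highest HT29 library for each of the 9 genes, also when all treated libraries were counted.

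**Figure D1:**
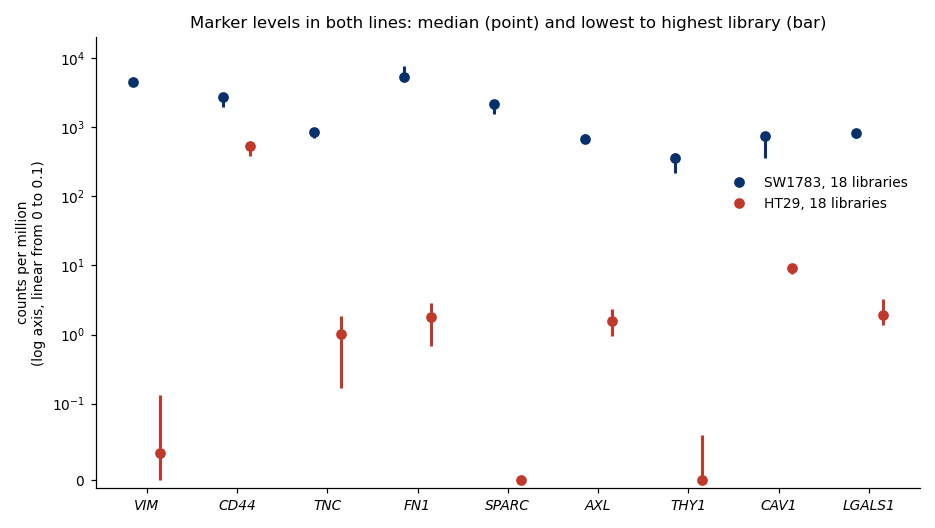
CPM of the 9 markers in SW1783 (blue) and HT29 (red), with points at the median of 18 libraries and bars from the lowest to the highest library; the axis is logarithmic above 0.1 and linear below. The lines are closest at CD44, with medians of 2694 and 527, and the HT29 points of SPARC and THY1 lie at 0.

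With increasing ACD dose in SW1783 the markers did not move as 1 group. CAV1 and THY1 fell past the threshold at the high dose and were lower at the medium dose, SPARC was lower mainly at the high dose, CD44 was lower from the low dose on, and VIM and AXL were higher from the low dose on. In normalized counts FN1, TNC and LGALS1 lay between 0.895 and 1.05 of the vehicle mean at every dose. In CPM, scaled by library totals, the vehicle and high-dose means were 5415 and 4981 for FN1. They were 928 and 782 for TNC and 878 and 726 for LGALS1. At the high dose 2 of the 9 markers were called, both lower, where 17.7% of all 20050 tested genes were called and 9.28% were called lower. Among the 4706 tested genes whose normalized counts averaged at least 1000, as those of all 9 markers did, 6.46% were called lower. At the medium and low doses DESeq2 called none of the 9, where 3.81% and 0.103% of all tested genes were called. Without the fold threshold 8 of the 9 passed at the high dose (2 higher, 6 lower; 45.0% of all tested genes and 74.6% of those with a mean of 1000 or more), 8 at the medium dose (3 higher, 5 lower; 29.5%) and 3 at the low dose (2 higher, 1 lower; 3.57%). For the medium and low doses the share among genes with a mean of 1000 or more was not computed. The counts at an unadjusted p-value under 0.05 were also 8, 8 and 3, and the quasi-likelihood test of edgeR called 2, 0 and 0. The median log2 fold change of the 9 was -0.16 at the high dose, against -0.01 over all tested genes. The 3 doses share their vehicle libraries, so their changes are not independent of each other. RNA was extracted from whole cultures, so that fewer cells of a type and less RNA per cell cannot be told apart.

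**Figure D2:**
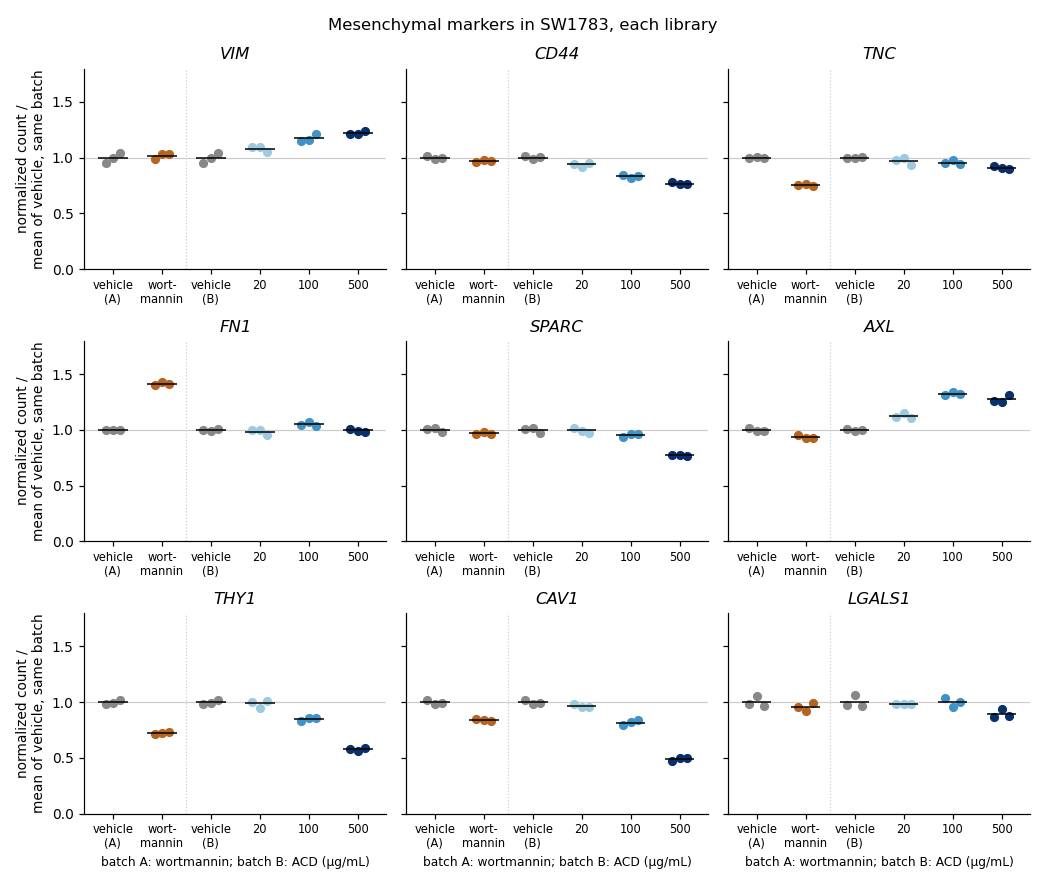
Normalized counts of each marker in each SW1783 library, divided by the vehicle mean of the same batch; points are libraries, black lines are group means, and the dotted line separates batch A (vehicle, wortmannin) from batch B (vehicle, ACD in µg/mL). CAV1 and THY1 fall to 0.490 and 0.577 of vehicle at 500 µg/mL, AXL and VIM lie at 1.27 and 1.22, and FN1 lies at 1.42 with wortmannin.

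CAV1 fell most. Its normalized counts were 16914, 16202 and 16470 in the vehicle, 16305, 15790 and 15853 at the low dose, 13084, 13571 and 13856 at the medium dose and 7812, 8231 and 8230 at the high dose. The medium and high libraries all lay below every vehicle library and below each other in order of dose, whereas the low dose overlapped the vehicle. The log2 fold change was -0.05 ± 0.03 (SE) at the low dose (adjusted p = 0.426), -0.29 ± 0.03 at the medium dose (adjusted p = 1.81e-23) and -1.03 ± 0.03 at the high dose (adjusted p = 7.02e-281), and the step from medium to high, tested on its own, was -0.74 ± 0.03 (adjusted p = 1.93e-142). CAV1 lies on chromosome 7 at 116524994 to 116561179, plus strand, of GRCh38, with 3 exons in its canonical transcript.

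The sequences before and around the start sites of CAV1, which fell most, of SPARC, which passed the adjusted p-value only at the medium and high doses, and of AXL, which was higher at each dose, are shown to set these 3 changes beside their promoters. Each window runs from 250 bases before to 50 bases after the RefSeq start, 5′ to 3′ on the gene's strand, on GRCh38.p14 (CAV1 at chr7:116524786-116525085, plus strand; SPARC at chr5:151686866-151687165, minus strand; AXL at chr19:41218973-41219272, plus strand). Capitals mark matches, on either strand, to the GC box GGGCGG that SP-family factors bind and, in SPARC, to the TEAD core GGAATG.
CAV1: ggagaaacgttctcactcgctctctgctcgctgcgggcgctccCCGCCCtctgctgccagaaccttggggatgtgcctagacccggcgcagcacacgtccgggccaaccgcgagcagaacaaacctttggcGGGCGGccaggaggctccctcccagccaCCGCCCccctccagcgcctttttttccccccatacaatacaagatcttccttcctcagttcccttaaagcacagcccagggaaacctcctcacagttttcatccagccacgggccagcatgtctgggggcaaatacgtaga
SPARC: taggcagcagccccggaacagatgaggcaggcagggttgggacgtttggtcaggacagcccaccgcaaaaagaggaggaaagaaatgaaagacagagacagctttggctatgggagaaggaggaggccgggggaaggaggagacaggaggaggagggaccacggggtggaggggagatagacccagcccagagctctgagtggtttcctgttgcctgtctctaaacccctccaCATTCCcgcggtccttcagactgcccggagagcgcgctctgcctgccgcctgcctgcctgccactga
AXL: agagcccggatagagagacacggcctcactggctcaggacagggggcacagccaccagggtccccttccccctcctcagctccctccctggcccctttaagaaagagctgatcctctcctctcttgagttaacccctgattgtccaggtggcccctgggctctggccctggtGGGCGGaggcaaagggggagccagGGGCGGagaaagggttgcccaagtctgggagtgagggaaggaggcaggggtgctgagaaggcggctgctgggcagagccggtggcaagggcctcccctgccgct
CAV1 held 3 GC box matches, AXL 2 and SPARC none, and SPARC held 1 TEAD core match. Windows were at hand for 7 of the 9 markers, all except THY1 and LGALS1. Of these 7, 6 held a GC box against 45.0% of all 35116 promoter windows, 1 a TEAD core (14.0% of all windows), 1 (FN1) the box CCAAT (34.6%), and none the box TATAAA (11.5%) or the AP-1 motif TGANTCA (7.7%). The GC content was 61.7% for CAV1, 61.3% for SPARC and 66.0% for AXL, where the median of all windows was 58.7%. A match describes letters in this window and shows no binding.

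THY1 was the other marker called at the high dose. Its vehicle libraries held 8370, 8447 and 8678 normalized counts, the low dose 8500, 8084 and 8617, the medium dose 7066, 7301 and 7256 and the high dose 4943, 4785 and 4988. The low dose overlapped the vehicle and the medium and high doses did not. The log2 fold change was -0.02 ± 0.03 at the low dose (adjusted p = 0.862), -0.24 ± 0.03 at the medium dose (adjusted p = 1.09e-13) and -0.79 ± 0.03 at the high dose (adjusted p = 3.98e-144). The step from medium to high was -0.56 ± 0.03 (adjusted p = 1.45e-69), just short of the fold threshold. THY1 lies on chromosome 11 at 119415476 to 119424985, minus strand, and the antisense gene THY1-AS1 overlaps it at 5.74% of its CPM in the vehicle. The strand setting of the counting was not stated, so a share of that size could be exchanged between the pair. For the other markers no overlapping gene reached 0.3% of the marker's CPM.

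Of the remaining surface proteins, CD44 was lower and AXL was higher at each dose. CD44 had 57539, 56006 and 57180 normalized counts in the vehicle, 53877, 52393 and 54400 at the low dose, 47829, 46765 and 47771 at the medium dose and 44276, 43385 and 43372 at the high dose. No 2 of these groups overlapped. The log2 fold changes were -0.09 ± 0.02, -0.26 ± 0.02 and -0.38 ± 0.02 (adjusted p = 0.00101, 2.74e-37 and 1.48e-79), and the step from medium to high was -0.12 ± 0.02 (adjusted p = 1.95e-08). AXL had 13212, 12881 and 13047 normalized counts in the vehicle, 14504, 14976 and 14413 at the low dose, 17127, 17470 and 17231 at the medium dose and 16482, 16260 and 17141 at the high dose. All treated AXL libraries lay above the vehicle, and the medium dose was the highest group. The log2 fold changes were 0.17 ± 0.02, 0.41 ± 0.02 and 0.35 ± 0.02 (adjusted p = 1.05e-08, 6.84e-58 and 6.8e-44), and the difference between high and medium of -0.06 ± 0.02 did not pass (adjusted p = 0.0603). None of these changes in CD44 and AXL reached 1.5-fold.

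VIM, which forms filaments inside the cell, was higher at every dose. Its normalized counts were 84470, 88237 and 92531 in the vehicle, 96651, 96636 and 93058 at the low dose, 101693, 102620 and 106936 at the medium dose and 107290, 107577 and 109276 at the high dose. The groups did not overlap, although the vehicle libraries spread more than those of any ACD group. The log2 fold changes were 0.11 ± 0.03, 0.23 ± 0.03 and 0.29 ± 0.03 (adjusted p = 0.00651, 2.64e-14 and 6.3e-23), and high against medium was 0.06 ± 0.03 (adjusted p = 0.0933).

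The matrix proteins differed among themselves. SPARC had 44494, 45115 and 43073 normalized counts in the vehicle, 45075, 43770 and 43188 at the low dose, 41613, 42721 and 42468 at the medium dose and 34231, 34408 and 33972 at the high dose. Its libraries left the vehicle range narrowly at the medium dose and clearly at the high dose, with log2 fold changes of -0.07 ± 0.02 (adjusted p = 0.0137) and -0.37 ± 0.02 (adjusted p = 2.75e-61). FN1 had 109994, 108607 and 110353 normalized counts in the vehicle, 114731, 117022 and 113474 at the medium dose and 110702, 109014 and 107633 at the high dose. At the high dose FN1 overlapped the vehicle, with a log2 fold change of -0.01 ± 0.02 (adjusted p = 0.835), and at the medium dose it was 0.07 ± 0.02 (adjusted p = 0.00609), a value that turned to -0.04 (adjusted p = 0.0816) when libraries were scaled by their totals. TNC, with 18734, 18757 and 18878 normalized counts in the vehicle and 17393, 17069 and 16905 at the high dose, did not overlap there and differed by -0.13 ± 0.02 (adjusted p = 2.9e-07). LGALS1 had 17338, 18893 and 17092 in the vehicle, 18481, 17070 and 17744 at the medium dose and 15421, 16645 and 15643 at the high dose. It overlapped the vehicle at the medium dose (-0.00 ± 0.04, adjusted p = 0.985) and not at the high dose (-0.16 ± 0.04, adjusted p = 4.79e-05). CD44, FN1 and TNC are spliced into forms that matter for their function, and gene-level counts cannot tell these apart.

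The high and medium doses differed from each other in 7 of the 9 markers by the adjusted p-value alone, all lower at the high dose, and only CAV1 passed the fold threshold. Of all tested genes 39.3% and 9.86% did so. High-dose libraries did not overlap the vehicle for 8 of the 9 markers, where 59.2% of all tested genes were so separated. The corresponding numbers were 8 of 9 and 50.3% at the medium dose and 3 of 9 and 26.2% at the low dose.

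**Figure D3:**
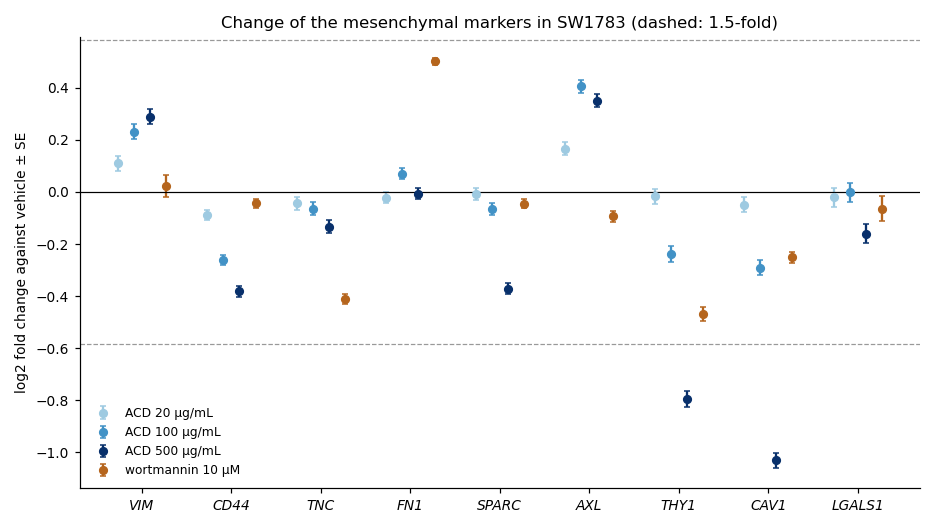
Log2 fold change of each marker in SW1783 against the vehicle of its batch, with SE, at 3 ACD doses and with wortmannin; dashed lines mark 1.5-fold. Only THY1 at -0.79 and CAV1 at -1.03, both at 500 µg/mL, lie beyond the dashed lines, and FN1 (0.50) and TNC (-0.41) with wortmannin lie apart from their ACD values.

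With wortmannin, FN1 was higher and THY1, TNC and CAV1 were lower, and DESeq2 called none of the 9 past 1.5-fold, where 2.71% of all tested genes were called. The unadjusted p-value was under 0.05 for 7 of the 9, and edgeR called 0. FN1 had 125165, 124747 and 125333 normalized counts in the batch A vehicle and 175805, 179227 and 176229 with wortmannin. Every wortmannin library was far above every vehicle library, and the log2 fold change was 0.50 ± 0.01 (adjusted p = 2.51e-292). THY1 went from 9433, 9519 and 9777 to 6828, 6954 and 6985 (-0.47 ± 0.03, adjusted p = 4.23e-72). TNC went from 21285, 21533 and 21186 to 16060, 16253 and 15875 (-0.41 ± 0.02, adjusted p = 1.19e-98), and CAV1 from 19991, 19243 and 19347 to 16558, 16476 and 16216 (-0.25 ± 0.02, adjusted p = 4.74e-31). In all 3 the groups did not overlap. AXL differed by -0.09 ± 0.02 (adjusted p = 9.55e-05), SPARC by -0.05 ± 0.02 (adjusted p = 0.0334) and CD44 by -0.04 ± 0.02 (adjusted p = 0.0251), whereas VIM (0.02 ± 0.04, adjusted p = 0.736) and LGALS1 (-0.06 ± 0.05, adjusted p = 0.351) did not pass. By the adjusted p-value alone 7 of the 9 passed, 1 higher and 6 lower, against 32.5% of all tested genes, and 6 of the 9 did not overlap the vehicle, against 54.2%. The 9 genes together took 1.83% of the counts in the batch A vehicle of SW1783 and 2.02% with wortmannin. FN1 carried this rise, at 5310 CPM in that vehicle and 7644 CPM with wortmannin. With ACD the share went from 1.85% in the batch B vehicle to 1.81%, 1.75% and 1.63% at the low, medium and high dose. ACD and wortmannin were run in different batches and were not tested against each other.

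In HT29 no marker was called by DESeq2 at the high, medium or low dose or with wortmannin, where 3.1%, 0.793%, 0.282% and 2.74% of all tested genes were called. Of the 9 markers, 2, 1, 1 and 2 had an unadjusted p-value under 0.05, and edgeR called 0, 0, 0 and 2. CD44, the only abundant marker in HT29, had 11800, 12238 and 12944 normalized counts in the vehicle and 11537, 10363 and 11059 at the high dose (log2 fold change -0.17 ± 0.05, adjusted p = 0.0354). Without the high-dose replicate 2 that stood apart, the CD44 change was -0.13 and its adjusted p-value 0.0502. CAV1 did not differ detectably in HT29, with 225, 208 and 223 normalized counts in the vehicle and 201, 244 and 199 at the high dose (-0.04 ± 0.14, adjusted p = 0.936). TNC was counted 16, 30 and 25 times in the vehicle and 44, 23 and 47 times at the high dose, with a log2 fold change of 0.80 ± 0.30 that did not pass (adjusted p = 0.079). LGALS1 was counted 54, 75 and 55 times in the batch A vehicle and 30, 41 and 31 times with wortmannin (-0.72 ± 0.29, adjusted p = 0.0573). TNC was counted 15, 30 and 22 times in that vehicle and 10, 11 and 3 times with wortmannin. Its log2 fold change was -1.35 ± 0.55, for which DESeq2 gave no adjusted p-value, and edgeR called it.

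The difference between the lines in the high-dose change was tested as an interaction, in which 15.2% of all tested genes were called. CAV1 fell more in SW1783 by 1.02 ± 0.10 on the log2 scale (adjusted p = 7.79e-23), and TNC differed by -0.97 ± 0.22 (adjusted p = 0.000104), which rests on 16 to 47 TNC counts per HT29 library and on a small change in SW1783. CD44 differed by -0.26 ± 0.05 (adjusted p = 7.78e-06), short of 1.5-fold. Without the high-dose replicate 2 of HT29 the differences were -0.96 for CAV1, -0.98 for TNC and -0.30 for CD44. For LGALS1 the difference was 0.01 ± 0.18 (adjusted p = 0.972), and for FN1 and AXL it did not pass. For VIM, SPARC and THY1 the interaction had no base, since HT29 held nearly no counts. For wortmannin, 3.42% of all tested genes were called, among them LGALS1 with 0.62 ± 0.19 (adjusted p = 0.0107), a call that was lost without the HT29 vehicle replicate 1 of batch A (0.54) or the HT29 wortmannin replicate 1 (0.56). CAV1 (-0.31 ± 0.09, adjusted p = 0.00867) and CD44 (-0.14 ± 0.05, adjusted p = 0.0293) were short of 1.5-fold, and TNC missed the p-value (0.90 ± 0.35, adjusted p = 0.0553).

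The proteins that work with the markers were read from the same fits, by lists of partner genes. Caveolae are built from caveolins and cavins, and CAV1 and CAVIN1, which coats caveolae, both fell past the threshold at the high dose. CAVIN1 had a mean of 17619 ± 846 normalized counts in the vehicle and 9404 ± 403 at the high dose (SD, n = 3; log2 fold change -0.91 ± 0.04, adjusted p = 4.55e-135). CAV2, which joins CAV1 in the caveolin complex, differed by -0.21 ± 0.03, and EHD2 and PACSIN2, which shape the neck and the membrane of caveolae, by -0.12 ± 0.04 and -0.20 ± 0.05. Of the 8 caveola genes 6 were tested at the high dose, and CAVIN1 was the only one called, where 17.7% of all tested genes were called. With wortmannin none of the 5 tested was called, where 2.71% of all tested genes were, and CAVIN1 was at -0.07 ± 0.02.

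**Figure D4:**
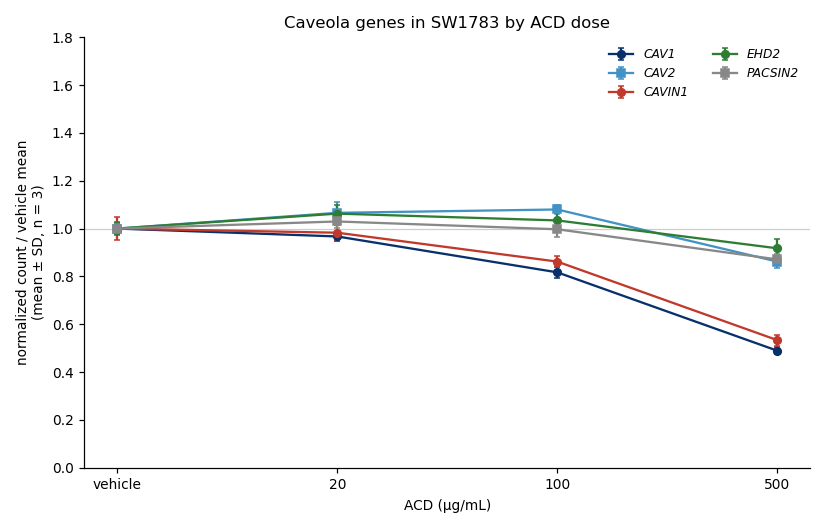
Mean normalized count of CAV1 and 4 partner genes in SW1783 by ACD dose in µg/mL, divided by the vehicle mean, with SD over 3 replicates. CAV1 and CAVIN1 fall to 0.490 and 0.534 of vehicle at the high dose, whereas CAV2, EHD2 and PACSIN2 lie at 0.862, 0.918 and 0.871.

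Among the genes around CD44 and hyaluronan, 2 of 7 tested were called at the high dose, both lower. Beside this count and those of the next lists, 17.7% of all tested genes were called and 9.28% were called lower. HAS3, a hyaluronan synthase, had means of 694, 478, 370 and 220 normalized counts in the vehicle and at the low, medium and high dose (-1.66 ± 0.10 at the high dose, adjusted p = 7.25e-60), and was also called with wortmannin (-0.61 ± 0.08). HYAL2, a hyaluronidase, was at -0.62 ± 0.06, and HAS2, the other expressed synthase, was at 0.44 ± 0.06 without passing 1.5-fold. Of the AXL partners none was called among the 4 tested at the high dose by DESeq2. The AXL ligands GAS6 and PROS1 were at -0.47 ± 0.04 and -0.31 ± 0.07 there, opposite in sign to AXL, and at 0.27 ± 0.03 and 0.56 ± 0.06 with wortmannin. Among the receptors for fibronectin and tenascin, ITGB3, the beta subunit of an integrin that binds fibronectin and vitronectin, had means of 239, 256, 485 and 1003 normalized counts over the 4 groups (2.07 ± 0.09 at the high dose, adjusted p = 8.96e-125). It was the only gene called among 7 tested, whereas ITGAV, the alpha subunit that pairs with it, was at 0.09 ± 0.03 and ITGA5, which with ITGB1 forms the classical fibronectin receptor, at 0.05 ± 0.02. LGALS3, another galectin, was at 0.56 ± 0.04, and none of the 4 genes tested of the galectin list, which holds the galectin-binding glycoprotein LGALS3BP, was called. Of the relatives of SPARC and TNC, 2 of 5 tested were called at the high dose, both lower. THBS1 was at -1.94 ± 0.04 and THBS2 at -0.78 ± 0.04, both matricellular thrombospondins. Of the intermediate filament partners of VIM 2 of 3 tested were called, both lower, with NES, nestin, at -1.72 ± 0.16 and SYNM, synemin, at -1.04 ± 0.13.

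Over the wider mesenchymal signature 10 of 34 tested genes were called at the high dose, 3 higher and 7 lower, with a median log2 fold change of -0.16, where 17.7% of all tested genes were called and 9.28% were called lower. The fibrillar collagens led the lower genes, with COL1A1 at -2.07 ± 0.04, COL1A2 at -1.89 ± 0.05 and COL5A1 at -1.54 ± 0.03. Higher were RELB, an NF-kB subunit (1.70 ± 0.08), PLAUR, the urokinase receptor (0.62 ± 0.05), and ANXA1, a phospholipid-binding annexin (0.60 ± 0.03), the last of which dropped under the fold threshold (0.58 each) without vehicle replicate 3 or high-dose replicate 2. The known regulators of the state had 6 of 20 called, 5 higher and 1 lower, beside the same 17.7%. Their median log2 fold change was nonetheless -0.10, against -0.01 over all tested genes. CEBPB (1.46 ± 0.16), BHLHE40 (1.00 ± 0.03) and FOSL1 (0.86 ± 0.05) led the higher ones, ZEB1 and ZEB2 were the others, and SNAI1 fell by 1.81 ± 0.11. At the medium dose 2 of 34 and 2 of 20 were called, where 3.81% of all tested genes were. With wortmannin TIMP1 (0.66 ± 0.02) was called in the signature and CEBPD (0.63 ± 0.13) among the regulators, the latter lost without vehicle replicate 1 (0.53) or wortmannin replicate 3 (0.53). Of the 6 proneural genes tested at the high dose 3 were called, 2 lower and 1 higher, beside 17.7% of all tested genes. The lower ones were PDGFRA at -1.40 ± 0.10 and SOX4 at -1.25 ± 0.05, and the higher one was OLIG2 at 3.93 ± 0.82, with a mean of 8.83 normalized counts over the 12 libraries. PDGFRA was also called with wortmannin, higher at 0.60 ± 0.07, a call lost without vehicle replicate 3 (0.58) or wortmannin replicate 3 (0.57). Of the 7 astrocyte genes tested at the high dose only SLC1A3, a glutamate transporter, was called, at -2.45 ± 0.11.

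Markers of other cells were read beside these changes. The counts of called genes below stand beside 17.7% of all tested genes called at the high dose and 9.28% called lower. The 6 fibroblast and pericyte genes, all above 1 CPM, summed to 3577 to 3766 CPM in the vehicle libraries of batch B and to 851 to 899 CPM at the high dose, and 4 of the 6 were called lower, among them PDGFRB (-1.15 ± 0.06) and ACTA2 (-0.94 ± 0.07). COL1A1, which the signature list holds too, made up most of this sum, with 736 to 3546 CPM over the SW1783 libraries against at most 110 CPM for any of the other 5, and RGS5 was at 0.54 ± 0.22 without passing 1.5-fold. The 5 leukocyte genes summed to 156 to 163 CPM in the vehicle and 181 to 192 CPM at the high dose, a sum that is mostly CD68 (135 to 188 CPM), whereas PTPRC (-1.71 ± 0.15) and CSF1R (-1.14 ± 0.25) were called lower, 2 of 3 tested. The 4 endothelial genes summed to 28.4 to 29.9 and 28.3 to 30.8 CPM. This sum was mostly KDR, with 26.05 to 31.23 CPM over the SW1783 libraries against at most 1.345 CPM for any of the others. Of the 6 epithelial genes tested 2 were called higher and 2 lower, the latter the keratins KRT18 (-1.55 ± 0.05) and KRT8 (-0.59 ± 0.10, under 1.5-fold without any of 3 single libraries). The 12 epithelial genes summed to 244 to 253 CPM in the vehicle and 87.5 to 90.1 CPM at the high dose. KRT18 made up most of this sum, with 68.68 to 249.6 CPM over the SW1783 libraries. Leaving out a library left 2 to 3 of the 4 calls, and CLDN7, a claudin with a mean of 5.00 normalized counts, was lost each time. The part of these changes, and of the mitochondrial RNA share above, in the falls of CAV1 and THY1 was not tested.

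**Figure D5:**
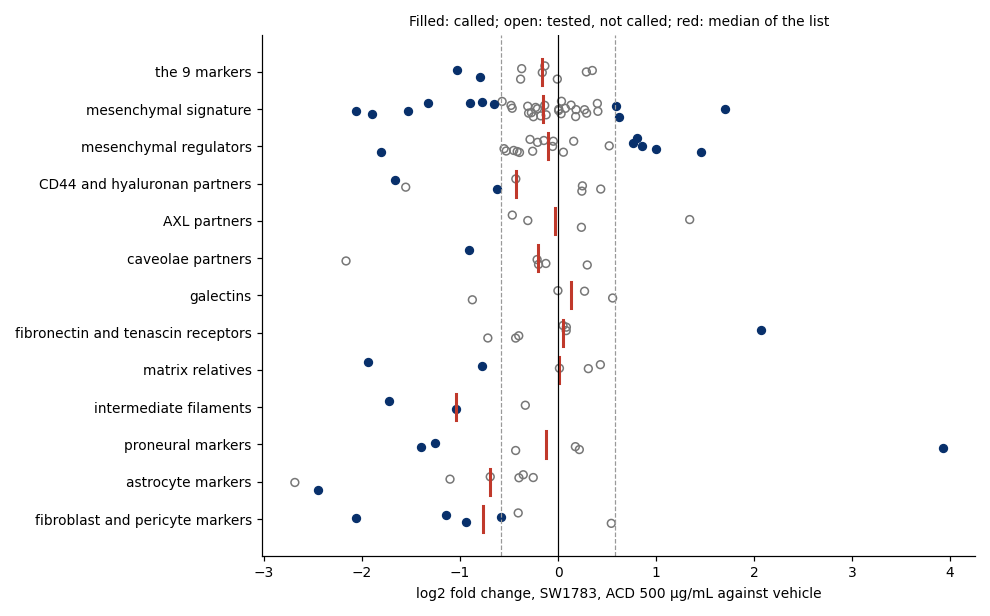
Log2 fold change at 500 µg/mL ACD against vehicle in SW1783 of the tested genes of each list, filled where called and open where not, with a red line at the median of the list; dashed lines mark 1.5-fold. The 9 markers have a median of -0.16 with 2 called. Over the other lists shown, called genes reach -2.45 (SLC1A3, an astrocyte gene) and 3.93 (OLIG2, a proneural gene, 24.5 normalized counts at the high dose).

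Over the 12 SW1783 libraries of batch B, the genes whose log2 normalized counts followed a called marker most closely were named as a description, among 11263 genes with a mean of 100 or more. For CAV1 these were CCNA2, cyclin A2 (Pearson r = 0.9976), and CD24, a surface glycoprotein (r = 0.9973). For THY1, PMEPA1, a TGF-beta-induced inhibitor of that pathway, is given (r = 0.9975). CCNA2 went from a mean of 1429 to 686 normalized counts, CD24 from 9957 to 3600, and PMEPA1 from 3822 to 1822. The points share the 4 dose groups and their depth, and 1176 genes had r over 0.95 with CAV1 and 1196 with THY1.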

How the data were processed

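The authors sequenced directional libraries from both lines as paired-end reads, trimmed them with Trim Galore, aligned them with STAR and quantified genes with RSEM 1.3.3, per the labels (FastQC 0.11.9, Trim Galore 0.6.5 and STAR 2.7.3a). The methods give other versions of the trimmer and the aligner, and write hg19, an older build, beside GRCh38 for the genome. The authors deposited RSEM expected counts per gene, not normalized, for 36 libraries. RSEM shares reads with several positions between genes by a model, so genes with close copies carry an uncertainty the counts do not show. Here the estimated counts were rounded to whole numbers (8.84% were not whole). Gene positions are those of GENCODE on GRCh38 and promoter windows those of RefSeq. They entered no test.

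Fold changes, SE and p-values came from DESeq2 1.42.0 (R 4.3.3, two-sided Wald test, default settings) with Benjamini-Hochberg adjustment over all genes of a contrast, fitted on the 12 libraries of batch B or the 6 of batch A of a line, on 24 or 12 libraries for interactions, and on the 6 vehicle libraries of batch B between lines. Normalized counts were divided by DESeq2's size factors. The quasi-likelihood test of edgeR 4.0.16 was an alternative, beside other scalings, a low-count filter (10 or more counts in at least 3 libraries), fits on the groups compared alone, a replicate block, no fold threshold, and leaving out each library. A count of 0 allows up to 3 counts, 0.0886 to 0.188 CPM, for counting error only. DESeq2 and edgeR were run on simulated data for the high dose and for wortmannin in SW1783 only. The other doses, HT29, the interactions and the other alternatives were not simulated. The 9 members, the gene lists and the rules for naming genes were chosen with earlier results of these data known. From a list, the 3 largest called changes of each sign at the high dose in SW1783 and the 2 largest with wortmannin were named where the mean normalized count was 100 or more, as were genes that bind or assemble with a marker. ZEB1, ZEB2, OLIG2, CSF1R, CD68, RGS5, KDR and CLDN7 were named after their values were seen. A gene that the rule on likeness names is not reported here.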

Additional observations from a re-analysis of the deposited data

Results flagged for a closer look

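In 3 cases a treatment effect differed between the lines by the interaction test of DESeq2 past the threshold. The log2 change of CAV1 was -1.03 ± 0.03 (SE) in SW1783 and -0.04 ± 0.14 in HT29 at the high ACD dose, a difference of -1.02 (adjusted p = 7.79e-23), and all 3 high-dose libraries lay below the vehicle in SW1783. That of TNC was -0.13 ± 0.02 in SW1783 and 0.80 ± 0.30 in HT29, a difference of -0.97 (adjusted p = 0.000104). HT29 had 16 to 47 TNC counts per library of batch B. That of LGALS1 was -0.06 ± 0.05 in SW1783 and -0.72 ± 0.29 in HT29 with wortmannin, a difference of 0.62 (adjusted p = 0.0107), and HT29 had 30 to 75 LGALS1 counts per library. Groups of 3 were too small for a test of single outlying libraries.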

How the results depend on the processing

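In SW1783 the calls of CAV1 and THY1 at the high dose, and the absence of calls at the medium and low doses and with wortmannin, held under every alternative that kept the fold threshold, and leaving out each library gave 2 calls each time at the high dose. Without the fold threshold the called markers numbered 8 at the high, 8 at the medium and 3 at the low dose, 7 with wortmannin and 7 for high against medium, and 1 in HT29 at the high dose and 3 in the wortmannin interaction. In HT29 with wortmannin the low-count filter called 1 marker, LGALS1 (-0.72, adjusted p = 0.0439), and edgeR called 2, LGALS1 and TNC. In the wortmannin interaction TMM-derived size factors and edgeR each called 2, LGALS1 and TNC, and leaving out a library gave 0 to 1, with TNC in place of LGALS1 without the HT29 vehicle replicate 1 of batch A and none without the HT29 wortmannin replicate 1. In the high-dose interaction that range was 2 to 3, with AXL added without the HT29 high-dose replicate 3. The causes were not tested. Of 1222 values of single genes under an alternative, 21 changed sign, all of them of markers. FN1 at the medium dose went to -0.0413 with library totals, a scaling added after the data were seen, which put the median of all well-counted genes at -0.11 (medium dose) and -0.09 (high dose) in SW1783 and at -0.11 at the high dose in HT29. It moved the share of higher genes among all called from 47.6% to 34.3% (high) and 61.3% to 35.8% (medium) in SW1783, and from 43.5% to 20.1% (high) and 71.9% to 85.3% (wortmannin) in HT29. PLAUR (0.51) and ANXA1 (0.48) then lost their calls. LGALS1 at the medium dose was 0.0015 with edgeR and 0.0007 in the fit on the groups compared, and leaving out a library gave -0.0307 to 0.0447. Leaving out a library also turned FN1 at the high dose (-0.0155 to 0.0037), SPARC (-0.0259 to 0.0076), THY1 (-0.0358 to 0.0099) and LGALS1 (-0.0482 to 0.0258) at the low dose, VIM with wortmannin (-0.0114 to 0.0561), LGALS1 in the high-dose interaction (-0.17 to 0.14), and CAV1 in HT29 at the high dose (-0.13 to 0.0179) and with wortmannin (-0.0223 to 0.11), none of them past the threshold. Of the other single-gene values 40 passed a threshold that the reported value had missed, mainly where the fold threshold was dropped, and 13 no longer passed.

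The deviations of treated and vehicle samples with the same replicate number correlated between -0.459 and 0.326. In no comparison was every pair above 0.1. No pairing was thus detected, but this check cannot exclude one. Same-numbered vehicles of batches A and B, which enter no test together, were more alike than others. Over 133 results, the replicate block changed the sign or the call of no single-gene value. No count of called list genes or markers changed by more than 1.5-fold, a rule that lets single calls move. The markers called at the high dose in SW1783 stayed at 2. With the block 253 genes in place of 393 were called with wortmannin in SW1783, 215 in place of 360 in HT29 and 270 in place of 444 in the wortmannin interaction. Among all genes, edgeR called 809 in place of 537 at the medium and 30 in place of 9 at the low dose and 687 in place of 393 with wortmannin in SW1783, and 18 in place of 48 at the low dose in HT29. The fit on the groups compared called 301 in place of 474 at the high dose in HT29. The count went from 9 to 5 without SW1783 low-dose replicate 1, from 48 to 25 or 31 without HT29 vehicle replicate 2 or low-dose replicate 3, and from 135 to 88 without HT29 medium-dose replicate 3. Depth limits the HT29 values of VIM, SPARC and THY1, and with wortmannin of TNC, for which DESeq2 gave no adjusted p-value.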
